A study of Mus musculus with 14 samples.

Results

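Ankrd1, Cyr61, Ctgf, Thbs1, Amotl1, Amotl2, Lats2, Axl, Tgfbi and Smad7 are genes that the co-activator YAP or the cytokine TGF-beta is known to switch on. They were found by name in the array annotation and make up 10 of the 21372 genes tested. Cyr61 and Ctgf are the array's names for the genes RefSeq calls Ccn1 and Ccn2. The 10 genes had 11 probes, 2 of them for Lats2, and each was well above background on all 14 arrays.

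The cells were mSCC-38, a mouse cell line from a skin squamous cell carcinoma raised with the carcinogens DMBA and TPA. Si1AK (4 arrays) and Si2AK (3 arrays) are a pair of siRNAs against the long non-coding transcript AK144841, SiC (3 arrays) is a control siRNA, and NT cells (4 arrays) were not transfected. Transfected cells received siRNA with the lipid reagent RNAimax and were harvested at 72 h, and no time is given for NT cells. RNA of 1 cell line in dishes was hybridised to 1-colour arrays, 1 sample to each. Whether the replicates came from separate cultures is not stated in the labels, and the p-values therefore cover the spread among these samples alone, which could be technical. Replicates 2 and 3 of SiC carry a different title from replicate 1 but the same control siRNA in their description. AK144841 itself was not analysed here, and the knockdown is therefore unchecked.

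YAP and its partner TAZ (Wwtr1) are transcriptional co-activators. The Hippo kinases, ending in LATS1 and LATS2, phosphorylate them and keep them out of the nucleus, and in the nucleus they act through TEAD transcription factors. TGF-beta binds receptor kinases that phosphorylate SMAD2 and SMAD3, which enter the nucleus with SMAD4. The pathways share targets such as Ctgf, and both are at work in wounded and transformed keratinocytes. Several targets feed back: angiomotin-like proteins and LATS2 restrain YAP, and SMAD7 blocks the TGF-beta receptor.

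RefSeq promoters (build GRCm38.p6, 250 bases before to 50 after the annotated start) were used for 7 of the 10 genes, with 2 for Lats2. They were searched on both strands for GGAATG, the core of the element that TEAD factors bind, and 5 of the 7 genes held it. Promoters of Ctgf, Thbs1 and Smad7 were not searched. The motif was in 14.7% of the 32851 promoters of that length in the table. Ankrd1 had 2 copies, at -210 and -123 from the start, Cyr61 had one at -103, Amotl2 at -65, Axl at -233 and Lats2 at 4. Amotl1 and Tgfbi had none in this window. The AP-1 element TGANTCA was in 7.81% of all promoters and the SMAD palindrome GTCTAGAC in 0.213%, and neither occurred in the promoters of these 7 genes. The 250 bases before the start are printed for the 4 genes with an upstream copy. Of these, Ankrd1, Cyr61 and Amotl2 were called with an siRNA against SiC and Axl was not. Of the genes searched that lack an upstream copy, Amotl1 was called, and Lats2 and Tgfbi were not. Whether the motif goes with the calls was not tested. Capitals mark GGAATG or its reverse complement, and each sequence runs 5′ to 3′ on the gene's strand. Ankrd1 is at chr19:36119845-36120094 (minus strand), Cyr61 at chr3:145649986-145650235 (minus strand), Amotl2 at chr9:102717554-102717803 (plus strand) and Axl at chr7:25788734-25788983 (minus strand).
Ankrd1: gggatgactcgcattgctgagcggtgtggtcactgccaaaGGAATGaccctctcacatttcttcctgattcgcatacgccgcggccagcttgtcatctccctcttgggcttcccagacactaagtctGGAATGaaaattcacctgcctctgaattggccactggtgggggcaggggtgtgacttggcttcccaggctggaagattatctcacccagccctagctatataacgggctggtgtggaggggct
Cyr61: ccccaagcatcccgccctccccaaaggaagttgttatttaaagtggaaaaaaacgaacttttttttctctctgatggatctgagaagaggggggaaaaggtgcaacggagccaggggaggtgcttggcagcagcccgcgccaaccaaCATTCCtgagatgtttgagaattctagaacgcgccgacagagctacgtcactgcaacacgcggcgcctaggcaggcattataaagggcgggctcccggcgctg
Amotl2: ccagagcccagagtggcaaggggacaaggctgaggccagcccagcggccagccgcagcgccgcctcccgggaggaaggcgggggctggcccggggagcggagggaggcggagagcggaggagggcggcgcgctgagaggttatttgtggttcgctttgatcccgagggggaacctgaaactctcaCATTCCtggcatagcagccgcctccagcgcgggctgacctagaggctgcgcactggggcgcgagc
Axl: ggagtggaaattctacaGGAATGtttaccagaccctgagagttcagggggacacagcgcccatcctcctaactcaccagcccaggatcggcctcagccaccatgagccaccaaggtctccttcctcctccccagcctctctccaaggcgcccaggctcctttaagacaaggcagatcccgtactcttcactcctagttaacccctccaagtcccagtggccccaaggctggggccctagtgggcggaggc

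Levels are log2 of the processed signal minus the 75th percentile of that array, so 0 is the 75th percentile, and levels of different probes cannot be set against each other. Differences were tested with limma over all genes, and a gene was called at a Benjamini-Hochberg adjusted p below 0.05. Precision is limited by the number of arrays. A level in bulk RNA does not tell fewer expressing cells from less RNA per cell. The arrays of SiC replicate 1 and Si2AK replicate 2 stood apart, with a median processed signal of 270.9 and 107.5 against 23.5 to 58.7 on the other 12 arrays. There were 2 slides with 7 arrays each, and SiC had a single array on slide 1 (replicate 1), as Si2AK had on slide 2 (replicate 3). Of 7 keratinocyte markers, 6 were well above background on all arrays of each group, and Cdh1 was on no Si1AK or NT array.

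With Si1AK, 5 of the 10 genes rose against SiC and none fell: Ankrd1, Cyr61, Ctgf, Thbs1 and Amotl2. Over all genes tested, 3.18% rose and 1.23% fell in that comparison. With Si2AK, 4 rose against SiC (Ankrd1, Cyr61, Amotl1 and Smad7) and Thbs1 fell, where 8.5% of all genes rose and 4.66% fell. Ankrd1 and Cyr61 were thus called higher with each of the siRNAs, and Thbs1 was called in opposite directions. The median log2 difference of the 10 genes was 0.50 for Si1AK and 0.10 for Si2AK against SiC, where the median of all genes was -0.06 and -0.02. Both comparisons share the SiC arrays. Without SiC replicate 1 and Si2AK replicate 2 together, the same count of 5 was called for Si1AK, and for Si2AK 3 rose and 1 fell. Scaling to the 75th percentile of the probes detected on all arrays changed the share of calls that were higher to 53.6% for Si1AK, against 72.1%, and to 43.3% for Si2AK, against 64.6%.

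**Figure D1:**
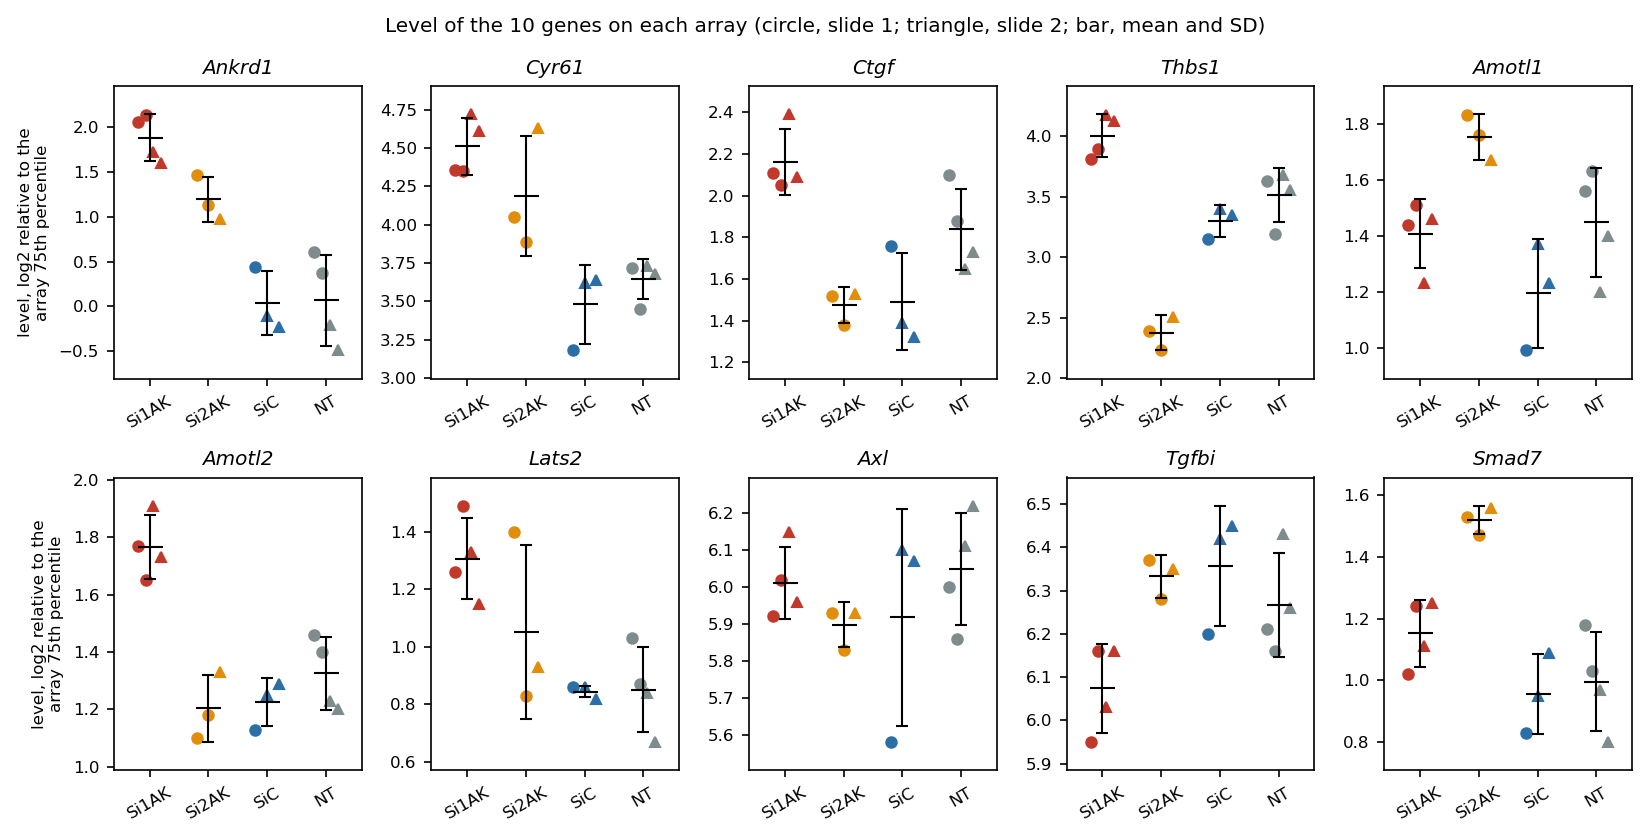
Level of each gene on each array (y axis, log2 relative to the array's 75th percentile, a separate scale per gene) in Si1AK, Si2AK, SiC and NT, with circles for slide 1, triangles for slide 2 and bars for the mean and SD. Ankrd1 separates both siRNA groups from SiC and NT, while Thbs1 lies between 3.81 and 4.18 with Si1AK and between 2.23 and 2.51 with Si2AK, on either side of the SiC and NT arrays.

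Ankrd1 encodes a nuclear ankyrin-repeat protein and is a widely used YAP target. The probe maps to chromosome 19, from 36186809 to 36186868 (mm9). It was at 2.06, 2.14, 1.72 and 1.60 on the Si1AK arrays and at 1.47, 1.13 and 0.98 on the Si2AK arrays, against 0.44, -0.11 and -0.23 on the SiC arrays and 0.61, 0.37, -0.21 and -0.49 on the NT arrays. Every Si1AK array was above every Si2AK array, and these above all SiC and NT arrays. Against SiC, Ankrd1 rose 3.59-fold with Si1AK (log2 difference 1.84 ± 0.267, SE; limma adjusted p = 0.00291) and 2.23-fold with Si2AK (1.16 ± 0.286; adjusted p = 0.0205). Against NT it rose by 1.81 ± 0.248 with Si1AK (limma adjusted p = 0.00142) and by 1.13 ± 0.267 with Si2AK (adjusted p = 0.0142). The gap between the siRNAs, -0.69 ± 0.267 for Si2AK against Si1AK, was not called (limma adjusted p = 0.133), but was -0.78 and called with slide as a block. The Si2AK call against SiC was lost without Si2AK replicate 1 (1.02), SiC replicate 2 (1.09) or SiC replicate 3 (1.03), without the filter on dim probes and with just the 2 groups in the fit, and the call against NT without Si2AK replicate 1 (0.99) and with just the 2 groups in the fit.

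Cyr61 encodes a secreted matricellular protein that binds integrins, and the probe maps to chromosome 3, from 145310187 to 145310246 (mm9). Levels were 4.36, 4.35, 4.72 and 4.61 with Si1AK and 4.05, 3.89 and 4.63 with Si2AK, against 3.18, 3.62 and 3.64 in SiC and 3.72, 3.45, 3.73 and 3.68 in NT. All siRNA arrays lay above all SiC and NT arrays, and the siRNA groups overlapped each other. Cyr61 rose 2.04-fold with Si1AK (1.03 ± 0.181; limma adjusted p = 0.00826) and 1.63-fold with Si2AK (0.71 ± 0.193; adjusted p = 0.0316) against SiC. Against NT it rose by 0.87 ± 0.167 with Si1AK (limma adjusted p = 0.00943), while the Si2AK difference of 0.54 ± 0.181 was not called (adjusted p = 0.0653). It was called under 9 of 21 alternatives, among them slide as a block (0.60), array weights (0.62) and leaving out Si2AK replicate 2 (0.69). The Si2AK call against SiC was lost without Si2AK replicate 1 (0.78), Si2AK replicate 3 (0.49) or SiC replicate 1 (0.56), on the authors' value table (0.52), without the filter on dim probes and with just the 2 groups in the fit.

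Ctgf encodes the connective tissue growth factor, a matrix protein of the same family, and is induced by both YAP and TGF-beta. The probe maps to chromosome 10, from 24318281 to 24318340 (mm9). It stood at 2.11, 2.05, 2.39 and 2.09 with Si1AK and 1.52, 1.38 and 1.53 with Si2AK, against 1.76, 1.39 and 1.32 in SiC and 2.10, 1.88, 1.65 and 1.73 in NT. The Si1AK arrays were above all SiC arrays but overlapped NT, and the Si2AK arrays lay within the SiC range and below all NT arrays. Ctgf rose with Si1AK against SiC by 0.67 ± 0.136 (1.59-fold; limma adjusted p = 0.0183), and the Si2AK difference was -0.02 ± 0.146 (95% CI of the log2 difference -0.34 to 0.30; adjusted p = 0.973). Neither siRNA was called against NT, at 0.32 ± 0.126 for Si1AK (limma adjusted p = 0.163) and -0.36 ± 0.136 for Si2AK (adjusted p = 0.101). SiC itself was 0.35 below NT (-0.35 ± 0.136; limma adjusted p = 0.636, unadjusted p = 0.0262). The call against SiC was lost without SiC replicate 2 (0.62) or 3 (0.59), under quantile normalization (0.61), with the percentile of detected probes (0.58), without the filter on dim probes and with just the 2 groups in the fit.

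Thbs1 encodes thrombospondin 1, a matrix glycoprotein that can release TGF-beta from its latent complex and that both pathways induce. The probe maps to chromosome 2, from 117952585 to 117952644 (mm9). It was at 3.81, 3.90, 4.18 and 4.13 with Si1AK and 2.39, 2.23 and 2.51 with Si2AK, against 3.15, 3.40 and 3.35 in SiC and 3.63, 3.19, 3.68 and 3.56 in NT. No Si1AK or Si2AK array overlapped SiC or NT. With Si1AK, Thbs1 rose by 0.71 ± 0.137 against SiC (1.63-fold; limma adjusted p = 0.0141) and by 0.49 ± 0.127 against NT (adjusted p = 0.0395). With Si2AK it fell to 52.8% of the SiC level (log2 difference -0.92 ± 0.146; limma adjusted p = 0.0021) and to 45.5% of the NT level (-1.14 ± 0.137; adjusted p = 0.000272). The Si1AK call against NT was lost without Si1AK replicate 2 (0.53), 3 (0.43) or 4 (0.45) or NT replicate 1 (0.53), 2 (0.38) or 4 (0.51), without the filter on dim probes and with just the 2 groups in the fit, and in that fit neither siRNA was called against SiC.

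**Figure D2:**
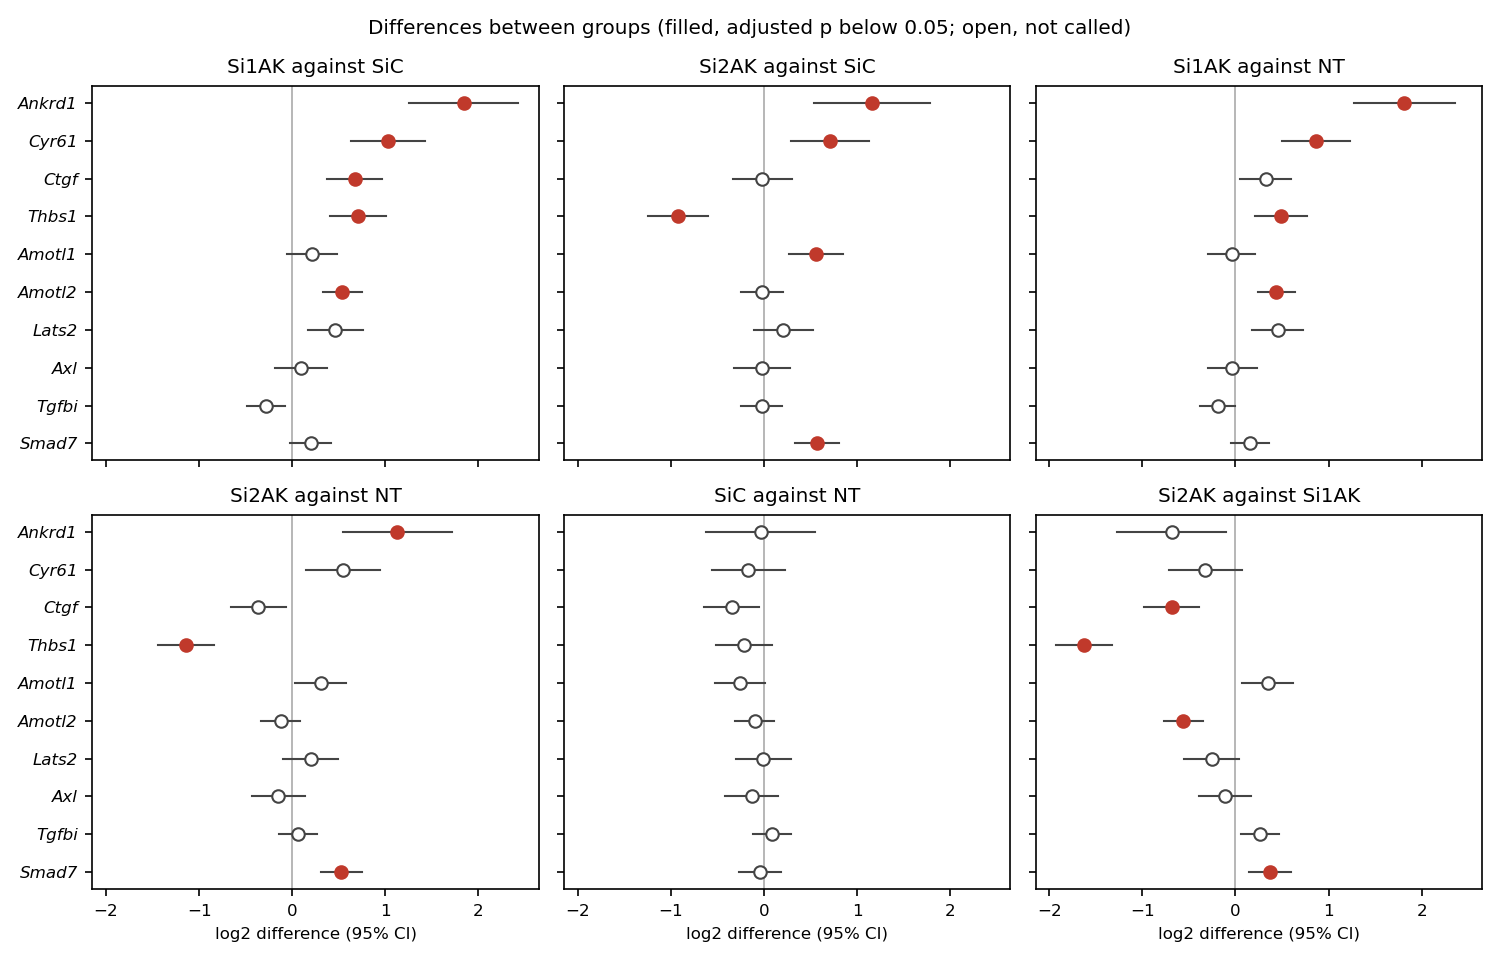
Log2 difference of each gene (x axis, points with 95% CI) in each of 6 comparisons, filled where the adjusted p was below 0.05. Ankrd1 is filled in all 4 comparisons of an siRNA against SiC or NT, Thbs1 is filled on opposite sides of 0 for Si1AK and Si2AK, and no gene is filled for SiC against NT.

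Amotl1, Amotl2 and Lats2 encode proteins that restrain YAP, the angiomotins by holding it at junctions and LATS2 as the kinase that phosphorylates it. Amotl2 rose with Si1AK and Amotl1 with Si2AK, and Lats2 was called with neither. Amotl2 (probe on chromosome 9, 102635025 to 102635084 of mm9) was at 1.77, 1.65, 1.91 and 1.73 with Si1AK and 1.10, 1.18 and 1.33 with Si2AK, against 1.13, 1.25 and 1.29 in SiC and 1.46, 1.40, 1.23 and 1.20 in NT. Its Si1AK arrays were above all others, and its Si2AK arrays overlapped SiC and NT. Amotl2 rose with Si1AK by 0.54 ± 0.0958 against SiC (1.45-fold; limma adjusted p = 0.009) and by 0.44 ± 0.0887 against NT (adjusted p = 0.0118). The first call was lost with just the 2 groups in the fit and the second without the filter on dim probes. For Si2AK against SiC the difference was -0.02 ± 0.102 (95% CI -0.25 to 0.20; limma adjusted p = 0.945).

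Amotl1 (chromosome 9, 14351949 to 14352008 of mm9) was at 1.44, 1.51, 1.23 and 1.46 with Si1AK and 1.83, 1.76 and 1.67 with Si2AK, against 0.99, 1.37 and 1.23 in SiC and 1.56, 1.63, 1.20 and 1.40 in NT. The Si2AK arrays were above all others, by a narrow margin over NT. Amotl1 rose with Si2AK against SiC by 0.56 ± 0.132 (1.47-fold; limma adjusted p = 0.017), and differed from NT by 0.30 ± 0.124 (adjusted p = 0.133). With Si1AK the difference from SiC was 0.21 ± 0.124 (limma adjusted p = 0.368). The Si2AK call was lost without Si2AK replicate 1 (0.52) and without SiC replicate 1 and Si2AK replicate 2 together (0.45), without the filter on dim probes and with just the 2 groups in the fit.

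Lats2 was read by a probe at chromosome 14, 58308807 to 58308866 of mm9. It was at 1.26, 1.49, 1.33 and 1.15 with Si1AK and 1.40, 0.83 and 0.93 with Si2AK, against 0.86, 0.86 and 0.82 in SiC and 1.03, 0.87, 0.84 and 0.67 in NT. The Si1AK arrays lay above all SiC and NT arrays, and of the Si2AK arrays only replicate 1 did. The Si1AK difference was 0.46 ± 0.135 from SiC (limma adjusted p = 0.0834) and 0.46 ± 0.125 from NT (adjusted p = 0.051), neither called. The difference from NT was called under 9 of 22 alternatives, slide as a block among them (0.46, limma adjusted p = 0.0336), and the difference from SiC with array weights (0.46, adjusted p = 0.00746). For Si2AK it was 0.21 ± 0.145 from SiC (limma adjusted p = 0.44), and against Si1AK -0.25 ± 0.135, which was called only without Si2AK replicate 1 (-0.43). A second Lats2 probe, for the transcript NM_153382 (chromosome 14, 58341225 to 58341284), was at -1.28, -1.38, -1.73 and -1.75 with Si1AK and -1.61, -1.39 and -2.17 with Si2AK, against -1.17, -1.81 and -1.92 in SiC and -1.79, -2.17, -1.96 and -1.96 in NT. On it, every Si1AK array was above every NT array and the other pairs of groups overlapped. Its group means differed from NT by 0.44 for Si1AK and 0.25 for Si2AK, and from SiC, where replicate 1 was the highest array, by 0.09 and -0.09.

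Axl and Tgfbi were not called in any of the 6 comparisons, though Tgfbi was under some alternatives. Axl encodes a receptor tyrosine kinase and is a YAP target, with its probe on chromosome 7, 26542541 to 26542600 of mm9. It was at 5.92, 6.02, 6.15 and 5.96 with Si1AK and 5.93, 5.83 and 5.93 with Si2AK, against 5.58, 6.10 and 6.07 in SiC and 6.0, 5.86, 6.11 and 6.22 in NT. All 4 groups overlapped, and the lowest array was SiC replicate 1. The log2 difference from SiC was 0.09 with Si1AK (95% CI -0.19 to 0.38; limma adjusted p = 0.697) and -0.02 with Si2AK (-0.32 to 0.28; adjusted p = 0.964).

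Tgfbi encodes a secreted matrix protein named for its induction by TGF-beta, and the probe maps to chromosome 13, from 56740460 to 56740519 (mm9). It was at 5.95, 6.16, 6.03 and 6.16 with Si1AK and 6.37, 6.28 and 6.35 with Si2AK, against 6.20, 6.42 and 6.45 in SiC and 6.21, 6.16, 6.43 and 6.26 in NT. The Si1AK arrays lay below all SiC arrays, and the Si2AK arrays within the SiC range. The difference from SiC was -0.28 ± 0.0933 with Si1AK (limma adjusted p = 0.122), which was -0.37 and called with the percentile of detected probes and with array weights. With Si2AK it was -0.02 ± 0.0998 (95% CI -0.24 to 0.19; limma adjusted p = 0.939). The difference of Si2AK from Si1AK, 0.26, was called with slide as a block (0.28) and with array weights (0.30).

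Smad7 encodes an inhibitory SMAD that TGF-beta induces and that shuts its receptor down. The probe maps to chromosome 18, from 75555371 to 75555430 (mm9). It was at 1.02, 1.24, 1.11 and 1.25 with Si1AK and 1.53, 1.47 and 1.56 with Si2AK, against 0.83, 0.95 and 1.09 in SiC and 1.18, 1.03, 0.97 and 0.80 in NT. The 3 Si2AK arrays were close together and above all others, and the Si1AK arrays overlapped SiC and NT. Smad7 rose with Si2AK by 0.57 ± 0.108 against SiC (1.48-fold; limma adjusted p = 0.00562) and by 0.53 ± 0.101 against NT (adjusted p = 0.00457). The call against SiC was lost with just the 2 groups in the fit. With Si1AK the difference from SiC was 0.20 ± 0.101 (limma adjusted p = 0.319).

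Set directly against each other, the siRNAs differed for 4 of the 10 genes. Thbs1, Ctgf and Amotl2 were lower with Si2AK than with Si1AK and Smad7 was higher, where 6.14% of all genes were lower and 6.31% higher. Thbs1 with Si2AK was at 32.3% of its Si1AK level (log2 difference -1.63 ± 0.137; limma adjusted p = 2.71e-05), the largest gap of the 10 genes. Ctgf differed by -0.69 ± 0.136 (limma adjusted p = 0.00635), Amotl2 by -0.56 ± 0.0958 (adjusted p = 0.00261) and Smad7 by 0.37 ± 0.101 (adjusted p = 0.0332). The Smad7 difference was not called without Si1AK replicate 1 (0.33) or 3 (0.35), or Si2AK replicate 1 (0.37), 2 (0.39) or 3 (0.35), with normexp background correction (0.33) or without the filter on dim probes. Cyr61 (-0.32, 95% CI -0.72 to 0.07) and Axl (-0.11, -0.40 to 0.17) were among the 6 genes not called.

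Against NT, 4 of the 10 genes rose with Si1AK (Ankrd1, Cyr61, Thbs1 and Amotl2), where 4.03% of all genes rose and 3.03% fell. With Si2AK, Ankrd1 and Smad7 rose and Thbs1 fell against NT, where 7.96% of all genes rose and 7.67% fell. The control siRNA called none of the 10 genes against NT. Over all genes it called 0% higher and 0% lower with limma, and 1586 of the 21372 genes had an unadjusted p below 0.05, among them 1 of the 10 (Ctgf). Over all genes that comparison gave 1 call under quantile normalization, 2 with slide as a block and 7 with array weights. Leaving out SiC replicate 3 gave 8 genes higher and 1 lower, and leaving out SiC replicate 1 and Si2AK replicate 2 together gave 5 calls. The SiC differences from NT ran from -0.35 (Ctgf) to 0.09 (Tgfbi).

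Fits on each slide rest on 7 arrays, with 1 SiC array on slide 1 (replicate 1, of raised signal) and 1 Si2AK array on slide 2, so that the other groups supply the spread of that lone array. The genes called against SiC had the same sign on both slides. On slides 1 and 2, Ankrd1 differed by 1.66 and 1.83 with Si1AK and by 0.86 and 1.15 with Si2AK. Cyr61 differed by 1.17 and 1.04 with Si1AK and by 0.79 and 1.0 with Si2AK, and Thbs1 by 0.71 and 0.78 with Si1AK and by -0.84 and -0.87 with Si2AK. Ctgf differed by 0.32 and 0.88 and Amotl2 by 0.58 and 0.55 with Si1AK. Amotl1 differed by 0.81 and 0.37 and Smad7 by 0.67 and 0.55 with Si2AK. The fits called 0 of these 10 differences on slide 1 and 2 on slide 2 (Ankrd1 with Si1AK and Cyr61 with Si2AK). With slide as a block, the calls against SiC were 5 for each siRNA, as without it.

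**Figure D3:**
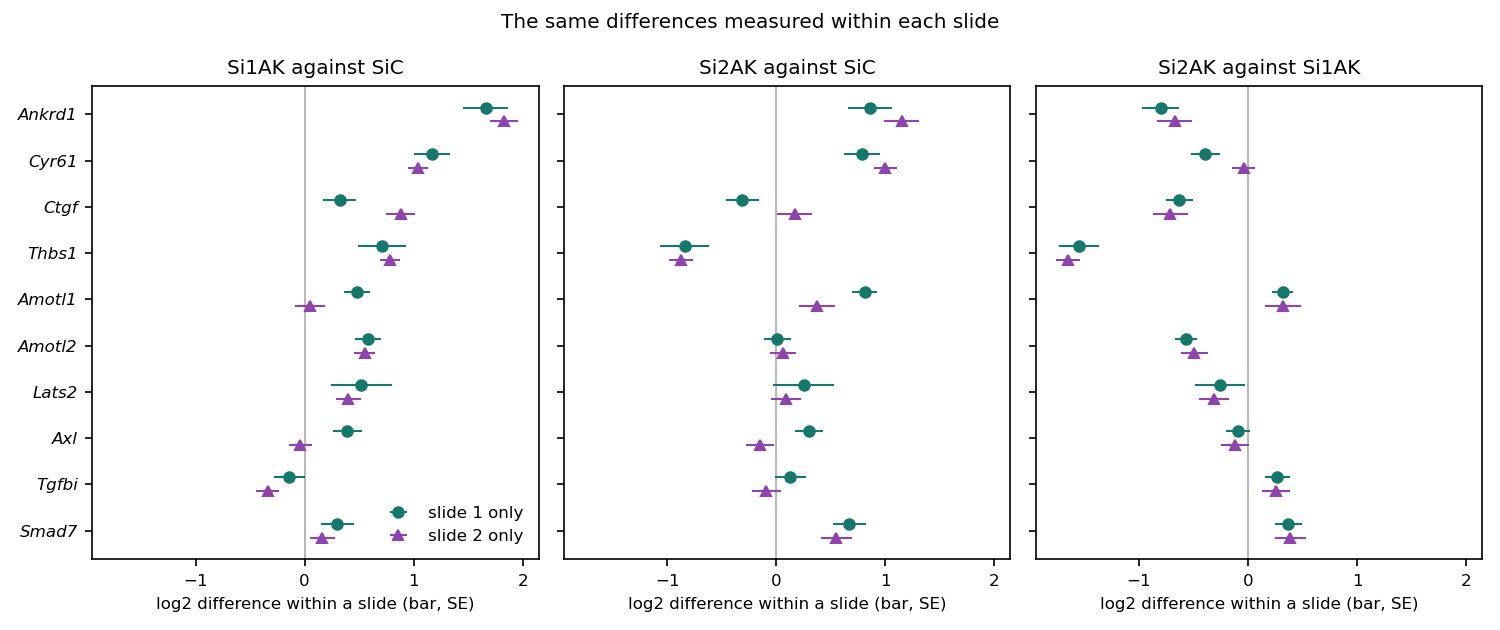
Log2 difference of each gene (x axis, bars for the SE) fitted on slide 1 alone (circles) and slide 2 alone (triangles), for Si1AK and Si2AK against SiC and for Si2AK against Si1AK. Thbs1 lies at 0.71 and 0.78 with Si1AK and at -0.84 and -0.87 with Si2AK, while Ctgf with Si2AK lies on opposite sides of 0.

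Of 26 upstream regulators and partners in the Hippo pathway, 24 were measured. None was called with Si1AK against SiC, where 3.18% of all genes rose and 1.23% fell. With Si2AK, 2 rose and 1 fell, shares close to the 8.5% higher and 4.66% lower over all genes. The median log2 difference of the 24 was 0.09 with Si1AK and 0.05 with Si2AK. Yap1 averaged 4.62 ± 0.113 (SD, n = 4) with Si1AK and 4.61 ± 0.126 (n = 3) with Si2AK, against 4.59 ± 0.164 (n = 3) in SiC and 4.81 ± 0.085 (n = 4) in NT, and differed from SiC by 0.03 and 0.02. Wwtr1, which encodes TAZ, differed from SiC by 0.32 ± 0.135 with Si1AK (limma adjusted p = 0.226) and by 0.37 ± 0.144 with Si2AK (adjusted p = 0.13). With Si2AK against SiC, Tead4 rose by 0.90 ± 0.169 (limma adjusted p = 0.00516) and Tead2 fell by 0.98 (SE 0.166; adjusted p = 0.00302), both DNA-binding partners of YAP. Nf2, which encodes the upstream activator Merlin, rose by 0.43 ± 0.122 (limma adjusted p = 0.0377). Without SiC replicate 1, or without Si2AK replicate 2, 1 regulator rose and 1 fell. Against NT, 1 regulator (Fat4) rose with Si1AK, where 4.03% of all genes rose. Fat4 was well above background on 4 of 4 Si1AK arrays, 1 of 3 Si2AK, 0 of 3 SiC and 0 of 4 NT arrays. It therefore passed the filter on dim probes through Si1AK alone, and its NT level was near background. With Si2AK, 2 regulators rose and 1 fell against NT, where 7.96% of all genes rose and 7.67% fell.

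Of 17 other YAP and TEAD targets, 15 were measured, and 5 rose with Si1AK and 4 with Si2AK against SiC, with none lower, where 3.18% and 8.5% of all genes rose and 1.23% and 4.66% fell. Ptpn14, a phosphatase that also restrains YAP, rose with Si1AK by 0.76 ± 0.135 (limma adjusted p = 0.009). Crim1, a transmembrane protein that binds BMPs, rose by 0.63, F3, the coagulation initiator tissue factor, by 0.59, Fjx1, a secreted regulator related to four-jointed of the fly, by 0.37, and Asap1, an Arf GTPase-activating protein, by 0.35. F3 was the single one of these called with Si2AK as well, at 1.05 ± 0.139 (limma adjusted p = 0.000715). The others that rose with Si2AK were Gadd45a, a stress-induced growth arrest gene, by 1.04 ± 0.118 (limma adjusted p = 0.000354), the ectonucleotidase gene Nt5e by 0.67 and Igfbp3, an IGF-binding protein, by 0.35. Without SiC replicate 1, the Si1AK count was 1 rather than 5, and for Si2AK 4 rose and 1 fell. The median difference of the 15 was 0.33 with Si1AK and 0.21 with Si2AK. Against NT, 5 rose and 1 fell with Si1AK, where 4.03% of all genes rose and 3.03% fell. With Si2AK, 4 rose and 2 fell against NT, where 7.96% of all genes rose and 7.67% fell.

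**Figure D4:**
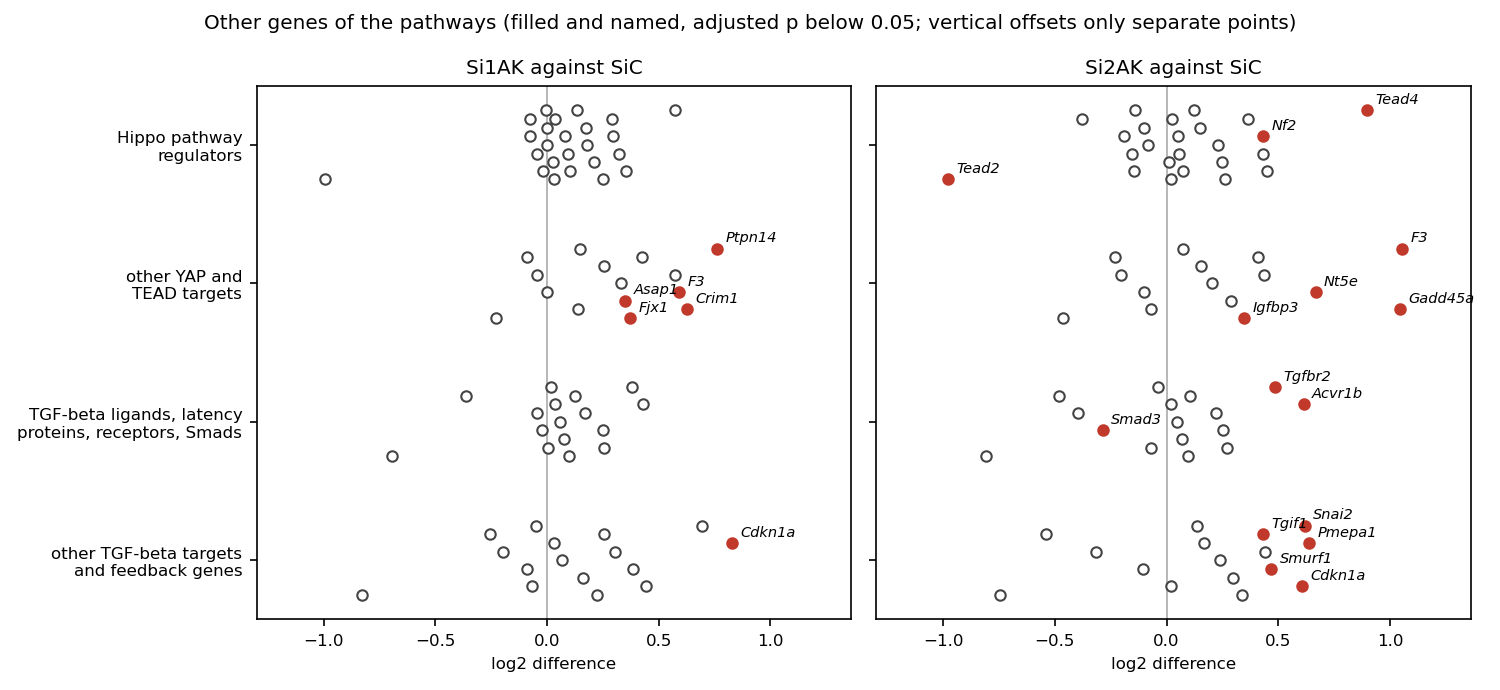
Log2 difference against SiC (x axis) of each measured gene of 4 pathway lists (rows), for Si1AK (left) and Si2AK (right), filled and named where the adjusted p was below 0.05. Of the Hippo regulators none is filled for Si1AK, and Tead2 and Tead4 lie on opposite sides of 0 for Si2AK.

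For TGF-beta, 16 of 18 ligands, latency proteins, receptors and Smads were measured. None was called with Si1AK against SiC, where 3.18% of all genes rose and 1.23% fell. With Si2AK, 2 rose and 1 fell, where 8.5% of all genes rose and 4.66% fell. With slide as a block, 1 fell with Si1AK, where 484 of the 21372 genes fell. In that setting 2 rose and 2 fell with Si2AK, where 2230 of all genes rose and 1272 fell. Tgfbr2, the ligand-binding receptor, rose with Si2AK by 0.49 ± 0.0902 (limma adjusted p = 0.0048), the activin receptor gene Acvr1b rose by 0.61 ± 0.142 (adjusted p = 0.015), and Smad3 fell by 0.28 (SE 0.0831; adjusted p = 0.0427). The Tgfbr2 difference with Si1AK was 0.06 ± 0.0843. Tgfb1, the main ligand gene, differed from SiC by -0.05 ± 0.149 with Si1AK and by 0.10 ± 0.159 with Si2AK, neither called. Without SiC replicate 1, 2 rose and none fell with Si2AK, and without SiC replicate 1 and Si2AK replicate 2 together, 2 rose with Si1AK. Against NT, none was called with Si1AK, where 4.03% of all genes rose and 3.03% fell, and 2 rose with Si2AK, where 7.96% rose.

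Of 18 other TGF-beta targets and feedback genes, 16 were measured, and 1 rose with Si1AK and 5 with Si2AK against SiC, where 3.18% and 8.5% of all genes rose. Cdkn1a, which encodes the cell cycle inhibitor p21, rose with both, by 0.83 ± 0.126 with Si1AK (limma adjusted p = 0.00389) and by 0.61 ± 0.135 with Si2AK (adjusted p = 0.0123). With Si2AK, Pmepa1, a feedback inhibitor that binds Smads, rose by 0.64, the epithelial-mesenchymal transition factor Snai2 by 0.62, the ubiquitin ligase gene Smurf1 by 0.47 and the corepressor gene Tgif1 by 0.43. Without SiC replicate 1 and Si2AK replicate 2 together, 3 rose with Si2AK. Against NT, 2 rose with Si1AK, where 4.03% of all genes rose. With Si2AK, 4 rose and 1 fell against NT, where 7.96% of all genes rose and 7.67% fell.

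Keratinocyte markers moved with Si2AK as well: 4 of 6 measured were higher than in SiC (Krt14, Krt17, Itgb4 and Trp63, by 0.36 to 0.63) and 5 of 6 higher than with Si1AK. Of all genes, 8.5% were higher with Si2AK than in SiC and 6.31% higher than with Si1AK. Against NT, 0 of 6 were called with Si2AK in limma, where 7.96% of all genes rose and 7.67% fell. With Si1AK, 2 of 6 fell against NT, where 3.03% of all genes fell. Without SiC replicate 1 and Si2AK replicate 2 together, 2 of 6 were higher with Si2AK than in SiC, where 1183 of the 21372 genes rose. In that setting 2 of 6 were also higher with Si2AK than in NT, where 2032 of all genes rose. The count against NT was 2 of 6 with slide as a block as well, where 2056 rose. Summed over the markers, the linear signal relative to the 75th percentile was 537 to 607 with Si1AK and 718 to 737 with Si2AK, against 525 to 662 in SiC and 650 to 759 in NT. Summed fibroblast markers were 1.05 to 1.56 with Si1AK and 1.56 to 1.99 with Si2AK, against 1.02 to 1.57 in SiC and 0.83 to 1.06 in NT, and 1 of 6 measured (Pdgfra) rose with Si2AK against SiC. Of the same 6, 2 rose with Si2AK and 1 with Si1AK against NT, where 7.96% and 4.03% of all genes rose. Leukocyte, endothelial and melanocyte markers gave no call against SiC with either siRNA in the main fit. With slide as a block, 1 of each list rose with Si1AK against SiC, where 899 of the 21372 genes rose. Without SiC replicate 1, 1 endothelial and 1 melanocyte marker rose with Si1AK against SiC, where 520 of the 21372 genes rose. In the main fit, 1 endothelial and 1 melanocyte marker were lower with Si2AK than with Si1AK, as were 6.14% of all genes. Against NT, 1 leukocyte, 1 endothelial and 1 melanocyte marker rose with Si1AK, where 4.03% of all genes rose. With Si2AK, 1 leukocyte marker fell against NT, where 7.67% fell. The endothelial marker Cdh5 averaged -1.94 with Si1AK, against -3.01 in SiC and -3.20 in NT, and the melanocyte marker Mlana -1.35, against -2.50 and -2.81. The other measured endothelial markers were level or lower with Si1AK than in SiC (Pecam1 -3.907 against -3.009, Vwf -5.453 against -4.455, Kdr 3.058 against 3.053). The melanocyte markers Pmel (-4.287 against -3.679) and Tyr (-3.18 against -2.438) were lower. The median log2 difference of Si1AK from SiC was -0.447 for endothelial and -0.608 for melanocyte markers. Their part in the differences of the 10 genes was not tested.

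Over the 14 arrays, 14432 named genes were compared with Ankrd1, Cyr61 and Ctgf for the likeness of their levels (Pearson r, given as a description, since arrays of a group share a treatment and arrays of a slide a batch). Most like Ankrd1 were Ggct (r = 0.97), Cgref1 (0.969) and Fbxw9 (0.96), with r of 0.988, 0.986 and 0.985 over the 12 arrays other than SiC replicate 1 and Si2AK replicate 2. Most like Cyr61 were Armcx2 (0.972), Mmp10 (0.939) and Spata6 (0.926), and most like Ctgf were Txk (0.861), Rab23 (0.844) and Robo3 (0.844). Over the 12 arrays these values were 0.972, 0.921 and 0.924 for the genes like Cyr61, and 0.845, 0.82 and 0.833 for those like Ctgf.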

How the data were processed

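Samples of mSCC-38 cells were measured on 14 Agilent mouse arrays of 1 colour. The scanner output came from Agilent Feature Extraction 10.7.3.1, with probe positions in mm9, per the file headers. The deposited processed signal is a spot's intensity after background correction inside each array, unscaled between arrays, and the deposited files also hold marks (0 or 1) for spots well above background, saturated or outlying. The value table the authors deposited is in log2 units. For it, limma is named in the submitters' processing notes, and its background step is not given in the sources used here. Its columns had medians of 6.51, and r with log2 mean signal was at least 0.991 over spots. It served as an alternative.

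Here, the log2 processed signal was scaled by subtracting the array's 75th percentile, computed over the 59305 non-control spots. Uneven or outlying spots were dropped and a probe's spots averaged. Probes had to be well above background throughout at least 1 group (30324 probes), and the brightest represented its gene (21372 genes, 14607 with a symbol). A limma 3.58.1 model (R 4.3.3) covered the 14 arrays, leaving 10 residual degrees of freedom, with Benjamini-Hochberg adjustment over all genes. The procedure was tested on simulated data. Replicate numbers of different groups were checked for pairing by the correlation of deviations from group means. It ran from -0.692 to 0.735 over 19 pairs of the same number (median 0.176) and from -0.849 to 0.874 over 54 other pairs (median -0.032). This showed no clear pairing but cannot settle it, since replicate number goes largely with slide, and SiC replicate 1 and Si2AK replicate 2 stood apart. The genes, the pathway lists and the tests were chosen with earlier results of these data known. All 10 genes are described, and of each list up to 4 called genes of largest difference with each siRNA against SiC, besides Yap1, Wwtr1, Tgfb1, Tgfbr2 and a further gene, not reported here, whatever their values. Asap1, Tgif1, Fat4 and the single markers were named after their values were seen. Alternatives changed the background correction, scaling, filter, probe rule, source of values, blocks, array weights and the arrays included.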

Additional observations from a re-analysis of the deposited data

Results flagged for a closer look

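The test of the difference between the siRNAs themselves passed for 4 of the 10 genes, so their effects against SiC differed between Si2AK and Si1AK. Over all genes, 6.14% were lower with Si2AK than with Si1AK and 6.31% higher. The log2 difference of Si2AK against Si1AK was -1.63 for Thbs1, -0.69 for Ctgf, -0.56 for Amotl2 and 0.37 for Smad7 (limma adjusted p = 2.71e-05, 0.00635, 0.00261 and 0.0332). Of 21 alternatives, the call held in 21 for Thbs1, 19 for Ctgf, 19 for Amotl2 and 11 for Smad7. For Smad7 it was lost on leaving out any single Si2AK array. Thbs1 was on opposite sides of SiC in all 7 siRNA arrays: above every SiC array in 4 of 4 with Si1AK and below every one in 3 of 3 with Si2AK. In the groups of 4 arrays, no array stood out from its group for any of the 11 probes (Dixon's test, 22 groups, none past the 95% critical value, which chance passes in about 1 group of 20).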

How the results depend on the processing

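None of the differences called in these genes changed sign under any alternative run. Leaving out 1 array at a time gave 4 to 5 calls for Si1AK against SiC, 2 to 5 for Si2AK against SiC (2 without Si2AK replicate 1), 3 to 4 for Si1AK against NT, 2 to 4 for Si2AK against NT, 3 to 4 for Si2AK against Si1AK and 0 for SiC against NT. Fits on slide 1 alone called 0 genes for Si1AK and 0 for Si2AK against SiC, 0 and 0 against NT, and 1 for Si2AK against Si1AK. On slide 2 alone these counts were 1 and 1 against SiC, 1 for Si1AK and 3 for Si2AK against NT and 1 for Si2AK against Si1AK. These slide fits hold fewer arrays. When the fit held just the pair of groups compared, 2 genes were called for Si1AK and 0 for Si2AK against SiC. Without a filter on dim probes, 2 were called for Si2AK against SiC and 2 for Si1AK against NT. Over all genes, where 679 rose and 263 fell with Si1AK and 1816 and 997 with Si2AK against SiC, the totals were 252 and 90 with just the groups compared, 397 and 1522 without the filter, 0 and 397 on slide 1, 34 and 181 on slide 2, and 4562 and 4621 with array weights, while leaving out Si1AK replicate 1 or 2 gave 461 or 426 and leaving out Si2AK replicate 1 gave 1757. Leaving out SiC replicate 1 and Si2AK replicate 2 together gave 3123 calls for Si1AK against NT, where 861 rose and 647 fell with all arrays, and 5 for SiC against NT. Neither of these arrays is in Si1AK or NT, so the differences of Si1AK from NT stayed the same while the estimate of spread changed. The median of all genes in that comparison was -0.088 with and without them. The cause of these shifts was not tested.

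The replicate numbers gave no clear pairing of the arrays: 5 of the 14 arrays correlated best with an array of their own number. With the replicate block, 5 genes were called for each siRNA against SiC, 4 for each against NT and 4 for Si2AK against Si1AK, where Ankrd1 was gained (-0.83) and Smad7 lost (0.35), and Cyr61 was gained for Si2AK against NT (0.57).

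Scaling moved the median difference of all genes by over 0.1: it was -0.06 for Si1AK against SiC, and 0.061 under quantile normalization, and -0.02 for Si2AK against SiC, and -0.143 with the percentile of detected probes.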

Other observations

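Between the 10 genes, levels over the 14 arrays gave Pearson r from -0.855 (Ctgf with Tgfbi) to 0.877 (Ankrd1 with Lats2), given as a description, since arrays of a group share a treatment. Over the 12 arrays other than SiC replicate 1 and Si2AK replicate 2 these were -0.9 and 0.929. Amotl1 and Smad7, both called with Si2AK and not with Si1AK, had an r of 0.768 (0.676 over 12 arrays), while Amotl1 and its relative Amotl2 had -0.097.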
